A study of Mus musculus with 68 samples.

Results

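The genes described here are 37 genes of the hair follicle and of cornified epithelium, the layered lining of skin whose outermost cells die as crosslinked scales. They were selected on measured values, because their transcripts differed widely and jointly between the mammary tumours of the series, so their spread and their correlations are descriptions and carry no test. Of the 37 genes, 35 were named in the platform annotation, among 18194 genes that had a probe set of their own, and each was read from its probe set with the highest mean. Dsg3 and Dsg4 were not analysed here. By the layer in which each is known to be made, the 35 were 5 genes of the hair inner root sheath, 3 of the hair shaft and its cuticle, 8 of the early suprabasal epidermis, 10 of the cornified envelope and late epidermis, 6 of wounded or stressed epithelium, 2 of stratified epithelium in general, and Prr9, whose layer was not assigned.

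Total RNA came from mammary tumours that arose spontaneously in mice with the MMTV-PyMT transgene, in which the promoter of mouse mammary tumour virus directs an oncogene, middle T of polyoma virus, to the mammary epithelium. All animals belonged to 1 cross, (NZB x PyMT) hybrids backcrossed to FVB, and the 68 arrays of 66 animals form 1 group with no control tissue analysed here. No label gives age, treatment or the part of the tumour taken. The values below come from 56 arrays of 56 animals whose mean over the 3 control probe sets for 18S ribosomal RNA was below 8, with 6.84 in the array just inside that limit and 8.97 in the array just outside it.

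The hair follicle builds a fibre inside a moulding sleeve. The inner root sheath hardens first, with its own type I and type II keratins paired into filaments and with trichohyalin as the matrix that transglutaminases crosslink, while the hair shaft fills with hair keratins and keratin associated proteins. The epidermis between follicles uses other keratins, Krt1 with Krt10, and packs its cells with loricrin, filaggrin and small proline-rich proteins, whereas Krt6a, Krt6b and Krt16 are made in the follicle's companion layer and in wounded epidermis.

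The genes of 1 layer lie on different chromosomes. Of the 35 genes, 11 were on chromosome 3, 5 on chromosome 11 with the type I keratins, and 4 on chromosome 15 with the type II keratins. The inner root sheath keratin Krt71 on chromosome 15 followed Krt25 on chromosome 11 with r = 0.919. With its chromosome 15 neighbours its r was 0.830 for Krt6a, 0.728 for Krt6b and 0.494 for Krt1. The 100 bases before the annotated start are shown for the inner root sheath genes, for Prr9, which followed Tchh with r = 0.988, and for Krt10, an epidermal keratin of the same chromosome 11 cluster. They come from RefSeq on GRCm38.p6 and are written 5′ to 3′ on the gene's strand, with the 6 letters of the TATA box core, TATAAA, in capitals.
Tchh: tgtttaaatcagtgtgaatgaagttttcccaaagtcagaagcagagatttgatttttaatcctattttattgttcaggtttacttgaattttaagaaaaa
Prr9: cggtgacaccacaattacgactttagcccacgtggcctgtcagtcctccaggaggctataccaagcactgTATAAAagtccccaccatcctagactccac
Krt25: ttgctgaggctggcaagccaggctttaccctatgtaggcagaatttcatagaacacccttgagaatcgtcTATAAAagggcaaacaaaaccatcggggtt
Krt27: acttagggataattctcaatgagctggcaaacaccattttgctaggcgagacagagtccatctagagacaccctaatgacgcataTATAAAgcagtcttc
Krt28: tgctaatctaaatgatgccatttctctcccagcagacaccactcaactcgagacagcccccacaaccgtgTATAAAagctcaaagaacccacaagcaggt
Krt71: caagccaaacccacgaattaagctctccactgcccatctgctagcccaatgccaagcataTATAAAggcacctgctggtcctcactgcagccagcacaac
Krt10: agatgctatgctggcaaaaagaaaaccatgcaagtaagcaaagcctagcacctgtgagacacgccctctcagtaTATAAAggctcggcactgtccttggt

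The windows lie at chr3:93442230-93442329 on the plus strand for Tchh, and on the minus strand at chr3:92123948-92124047 for Prr9, chr11:99322952-99323051 for Krt25, chr11:99351119-99351218 for Krt27, chr11:99374904-99375003 for Krt28, chr15:101743098-101743197 for Krt71 and chr11:99389365-99389464 for Krt10. Counted from the start, the first T of TATAAA stood at position -30 in Krt25, Krt28 and Prr9, at -26 in Krt10, at -15 in Krt27 and at -40 in Krt71. Tchh had no such match in its window, which says only that these letters are not there. RefSeq gave 33 promoters of 27 members, each reaching from 250 bases before to 50 bases after the start. TATAAA on the sense strand within the last 40 bases before the start was found in 14 of the 33 (42.4%), against 2.31% of all 32851 promoters. Among the roles this held for 4 of 5 inner root sheath promoters, 4 of 10 of the late epidermis, 2 of 7 of the early suprabasal epidermis, 2 of 3 of the stress genes, 1 of 6 of the hair shaft and cuticle, the 1 promoter of Prr9, and 0 of 1 of the genes of stratified epithelium in general. Read on both strands over the whole 300-base window, in which TATAAA occurred in 51.5% of the members' promoters against 13.6% of all, the AP-1 element TGANTCA was in 36.4% against 7.81%. The LEF1 and TCF core CTTTGA, searched the same way, was in 15.2% of the members' promoters against 16.0% of all. A match is a string of letters and not a measured binding site, and promoters of 1 gene overlap.

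The deposited values are RMA values, read here as log2 units. The genes named below as raised in an array lay more than 1 log2 unit above their own median over the 56 arrays. Of the 35 genes, 30 passed a filter that asked for a 95th percentile above the median of all values (5.42), as did 12560 of the 18194 genes in all. Dsg1a, Ivl, Rptn, Sprr3 and Dsc3 did not pass. Of the 6 mammary luminal markers, Krt8 ranged from 11.90 to 12.94, Krt18 from 11.82 to 12.81, Elf5 from 11.36 to 12.53 and Epcam from 11.12 to 12.43. Krt19 ran more widely, from 7.45 through a median of 10.65 to 11.61, and Krt7 from 8.66 through 9.35 to 11.22. The arrays also fell into 3 sets that no label names and that many probe sets on many chromosomes share, set A with 39 arrays, set B with 9 and set C with 8. In bulk tumour RNA, fewer cells of a type and less RNA per cell cannot be told apart.

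The inner root sheath genes were low in most tumours and very high in a few. Tchh, which encodes trichohyalin (probe set 1434425_at), had its lowest value at 1.81, its median at 2.84 and its highest at 11.14. Its upper quartile was 6.10, so that the high values were no lone tumour, and 22 of 56 arrays were raised. Among the type I keratins of the sheath, Krt25 (1418173_at) ran from 2.57 through a median of 2.95 to 10.18. Krt27 (1449378_at) ran from 3.86 through 4.28 to 11.24, and Krt28 (1430132_at) from 2.85 through 3.16 to 9.94. These 3 neighbours were raised in 14, 15 and 10 arrays. Their type II partner Krt71 (1448457_at) started from a higher floor, with 5.63 lowest, 6.04 median and 10.16 highest, and was raised in 7 arrays. The SD over the 56 arrays was 2.64 for Tchh, 1.82 for Krt25, 1.66 for Krt27, 1.58 for Krt28 and 0.88 for Krt71, against a median of 0.227 over all genes tested.

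The same tumours led for all 5 sheath genes. By the mean of the 5, tumour 2703 stood at 10.40 and tumour 4980 at 10.20, against a median of 3.81 over the 56 arrays. They were followed by 3867 (8.51), 3769 (8.29), 3351 (7.46), 3039R (7.09), 3550 (6.74), 3295 (6.29), 3864 (6.18), 5000 (6.11) and 2421 (6.09). In these 11 arrays, 4 or 5 of the 5 genes were raised, and in 6 arrays all 5 were. A further 3 arrays had 3 genes raised, 8 had 1 or 2, and 34 had none. With 2 log2 units instead of 1 as the size that counts, 7 arrays had 4 or 5 of the genes raised. The 11 arrays came from array sets A, B and C alike, with 3039R from set B, 4980 and 5000 from set C and the other 8 from set A.

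Genes of the hair shaft were high in the same tumours. Krtap8-1, a keratin associated protein that fills the cortex of the fibre (1427211_at), had 3.31 as lowest, 3.99 as median and 11.96 as highest value. It was raised in 15 arrays, and Tchh was raised in all 15. S100a3, a calcium-binding protein of the hair cuticle, ran from 3.51 through 4.12 to 10.05, and Padi3, which converts arginine to citrulline in trichohyalin, from 4.32 through 4.97 to 10.23. Both had their highest values in tumours 2703 and 4980. The mean of the 3 shaft genes followed the sheath mean with Pearson r = 0.956 and Spearman rho = 0.817 over 56 arrays, and with r = 0.942 without 2703 and 4980. Within array sets A, B and C, r was 0.960, 0.905 and 0.973 (n = 39, 9 and 8).

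Prr9, a small proline-rich protein gene of the same stretch of chromosome 3, had the widest spread of all 35 genes. Its values (1444061_at) ran from 3.34 through a median of 3.87 to 13.03, an SD of 2.71. It was raised in 21 arrays, all of them among the 22 with raised Tchh. Its correlation with Tchh was 0.988 (rho = 0.895, n = 56), and without tumours 2703 and 4980 it was 0.985. With the sheath keratins it was 0.944 for Krt25, 0.953 for Krt27, 0.911 for Krt28 and 0.823 for Krt71. With the epidermal genes it ranged from -0.0775 for Casp14 and 0.0347 for Lor to 0.886 for Calm4, 0.920 for Dsc1 and 0.945 for Crct1. Krt1 and Krt10 lay between, with 0.600 and 0.589. High values of Prr9 thus went with those of several epidermal genes as well as of the sheath.

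**Figure D1:**
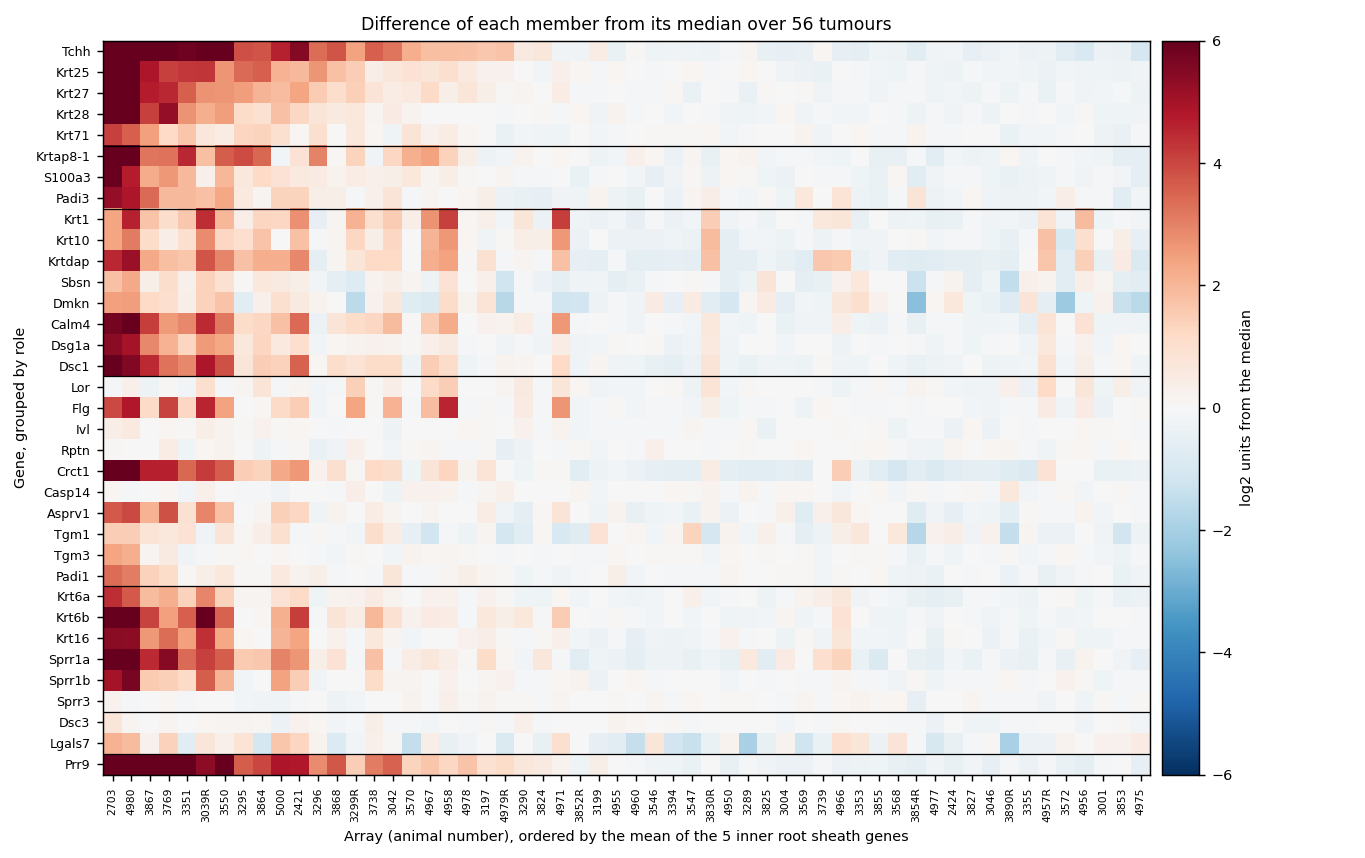
Difference of each of the 35 genes (rows, grouped by role) from its own median over the 56 arrays, in log2 units, with arrays ordered along the x axis by the mean of the 5 inner root sheath genes. Colour stops at 6 units in either direction. The sheath, shaft and stress blocks are dark at the left end, Krt1, Krt10, Krtdap and Flg are also raised in tumours 4958 and 4971 further right, and the rows of Ivl, Rptn, Casp14, Sprr3 and Dsc3 stay pale.

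Of the early suprabasal genes of epidermis, Krt1 and Krt10 were raised in a set of tumours that only partly matched. Krt1 (1422481_at), the type II keratin that cells make on leaving the basal layer, had 4.03, 4.51 and 9.14 as lowest, median and highest values. Its partner Krt10 (1452166_a_at) had 6.37, 7.28 and 10.41. Both peaked in tumour 4980, followed by 3039R and 4971, and they followed each other with r = 0.916 (rho = 0.733) from 2 chromosomes. Krt1 was raised in 17 arrays, and in 14 of these Tchh was raised as well. In the other 3, none of the 5 sheath genes was raised, and in 8 arrays Tchh was raised while Krt1 was not.

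Individual tumours show the difference between both layers. In tumour 4971, Krt1 lay 4.14 units, Krt10 2.62 and Flg 2.63 above their medians, while Tchh was at -0.23, Krt25 at 0.30, Krt71 at -0.27 and Prr9 at 0.23. In tumour 4958, Krt1 lay 4.10, Krt10 2.62 and Flg 4.55 above, with Tchh at 1.83, Krt25 at 0.97 and Krt28 at -0.01. By the sheath mean these tumours had ranks 25 and 19 of 56. Tumour 3296 was the opposite case: Tchh lay 3.37, Krt25 2.64, Krtap8-1 2.95 and Prr9 2.81 above their medians, while Krt1 was at -0.49, Krt10 at -0.10, Krtdap at -0.59 and Flg at -0.18. Tumour 3769 had rank 4 by the sheath mean with Krt28 at 5.29, Crct1 at 4.64, Flg at 4.06, Asprv1 at 3.81 and Krtdap at 1.82, and with Krt10 at 0.42 and Krt1 at 1.07.

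The other early suprabasal genes did not share 1 pattern. Dsc1, Dsg1a, Sbsn and Dmkn each had a larger r with each of the 5 sheath genes than with Krt1 or Krt10. For Dsg1a r was 0.825 to 0.939 with the sheath genes and 0.660 with Krt1. Krtdap did the reverse, with 0.871 for Krt1 and 0.683 to 0.781 for the sheath genes. For Calm4, the 0.849 with Krt1 lay within its range for the sheath genes, 0.778 to 0.890. Krtdap, a secreted peptide of differentiating keratinocytes, ran from 2.93 through 3.82 to 8.99 and was raised in 21 arrays. Calm4, a calmodulin-like protein of epidermis, ran from 4.17 through 4.70 to 10.77, and the desmosomal cadherin Dsc1 from 2.23 through 2.77 to 9.02. All 3 were highest in 4980 and 2703, the tumours that also led for the sheath. Dsg1a, the partner cadherin of Dsc1, ran from 2.09 through 2.45 to 7.87 and did not pass the filter, with 8 arrays raised. Sbsn and Dmkn, secreted proteins of the suprabasal layers, had much higher floors, from 7.53 through 8.99 to 11.29 and from 6.34 through 8.87 to 11.35. They were raised in 4 and 7 arrays, and the lowest value of Dmkn, in array 3854R, lay well below its median.

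In the probe sets taken, the late and cornified genes varied less than the early ones, with a median SD of 0.56 over 10 genes against 1.26 over 8. Of the late genes, Rptn, Casp14, Ivl, Lor and Tgm3 each had a wider probe set that was not taken, and no early gene had. In the probe sets taken, Crct1, a cysteine-rich protein of the cornified layer, was the widest late gene, from 4.04 through 5.03 to 11.66 (SD 1.81, raised in 15 arrays). Flg, the filaggrin gene, ran from 2.03 through 2.37 to 7.18 (SD 1.39, raised in 14 arrays), and Asprv1, the protease that processes filaggrin, from 6.49 through 7.23 to 11.20. Crct1 was highest in tumours 2703 and 4980, as were the crosslinking enzymes Tgm1 (4.80, 6.54 and 8.02) and Tgm3 (4.89, 5.27 and 7.64) and the citrullinating enzyme Padi1 (4.14, 4.57 and 7.93). Lor, which encodes loricrin, the main protein of the cornified envelope, behaved otherwise: it was highest in tumour 4958 (5.83, 6.19 and 7.65), and in 2703 it was 0.13 units below its median. Its correlation was 0.615 with Krt1 and 0.0717 with Tchh.

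The choice of probe set decided what several of these genes showed. Of the 35 genes, 9 had more than 1 probe set, and the probe set with the highest mean was often the flatter. For Rptn, repetin, a protein of the trichohyalin family made in cornified cells and hair, the rule took 1433210_at, which ran from 3.48 through 3.99 to 4.43 with an SD of 0.17. Its probe set 1420431_at ran from 2.23 through 2.64 to 10.14 with an SD of 2.15, was raised in 11 arrays, and was highest in tumours 3769, 4980 and 2703. Casp14, the caspase of cornification, had SDs of 0.16 and 0.73 in its 2 probe sets, and the involucrin gene Ivl 0.18 and 0.63. Lor had SDs of 0.44, 0.19 and 1.19 in its 3 probe sets, Krt6a 0.99, 1.74 and 0.74, and Dsc3 0.17 and 0.52. With the probe set of the largest SD for each gene, the median correlation among the late epidermal genes was 0.753 (45 pairs of 10 genes), against 0.473 by the rule (28 pairs of the 8 that passed the filter) and 0.284 for all 10.

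**Figure D2:**
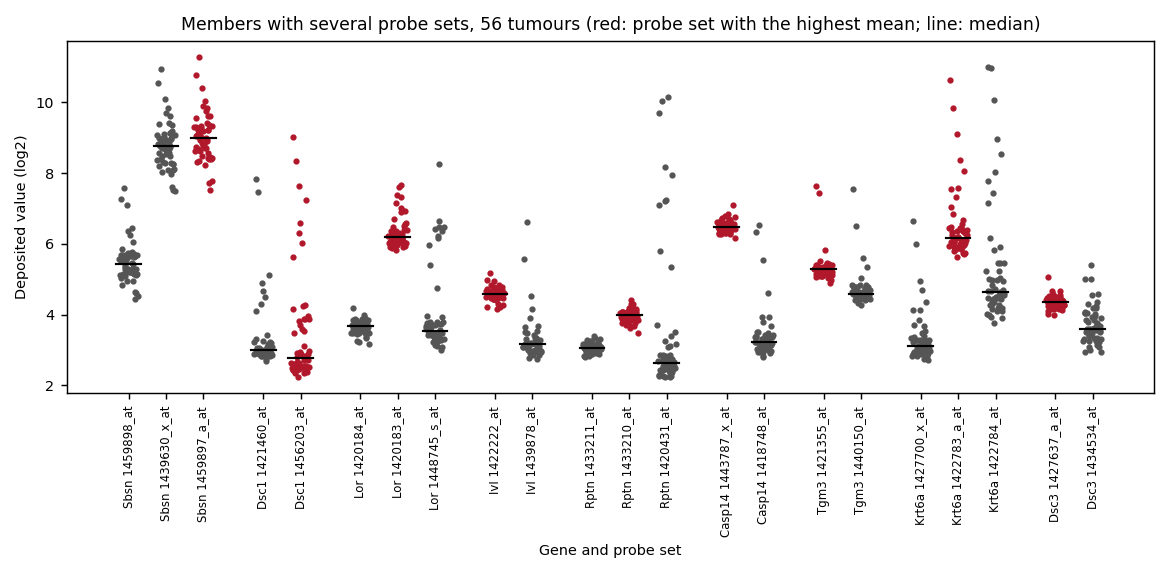
Deposited values (y axis, log2) of every probe set of the 9 genes with several, 1 point per tumour (n = 56), with a black line at the median and the probe set of the highest mean in red. The red probe sets of Rptn, Casp14, Ivl and Dsc3 form narrow bands, while another probe set of Rptn reaches 10.14 and another of Casp14 reaches 6.53.

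The genes of stressed epithelium ran with the hair genes. Krt6b (1422588_at) had 4.29, 4.54 and 11.09 as lowest, median and highest values, with its top in array 3039R. Krt16, the type I keratin that pairs with the Krt6 keratins, ran from 3.64 through 4.16 to 9.56, and Krt6a from 5.62 through 6.17 to 10.62. Sprr1a and Sprr1b, small proline-rich proteins that are crosslinked into the envelope, ran from 4.61 through 5.47 to 12.19 and from 2.36 through 2.73 to 8.43. Sprr3 (4.60, 5.09 and 5.38) stayed flat and did not pass the filter. Krt6b was raised in 11 arrays, 10 of them with raised Tchh. The mean of the 5 stress genes that passed the filter followed the sheath mean with r = 0.924 (rho = 0.770, n = 56), and with r = 0.862 without tumours 2703 and 4980. Tumours 3295 and 3864 departed from this. In 3295, Tchh lay 3.88 and Krtap8-1 3.89 above the median with Krt6b at 0.04 and Krt16 at 0.13. In 3864, Tchh lay 3.78 above with Krt6b at 0.13 and Krt16 at 0.02. Sprr1a was raised in both, by 1.55 in 3295 and 1.61 in 3864, the 1 gene of the 5 that was. In 3296, Tchh lay 3.37 above with Krt6b at -0.06 and Krt16 at 0.03, and none of the 5 was raised. Array 3039R lay the other way, with a stress mean of 8.93 at a sheath mean of 7.09. In tumour 3867 the stress mean was 7.52 at a sheath mean of 8.51.

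Of the genes of stratified epithelium in general, Lgals7, a galectin of stratified epithelia, ran from 5.85 through 7.81 to 9.90 and was raised in 6 arrays. Its correlations with the 5 sheath genes lay between 0.455 and 0.546. Dsc3, a desmosomal cadherin of the basal layers, was nearly flat in the probe set taken (3.98, 4.35 and 5.06).

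**Figure D3:**
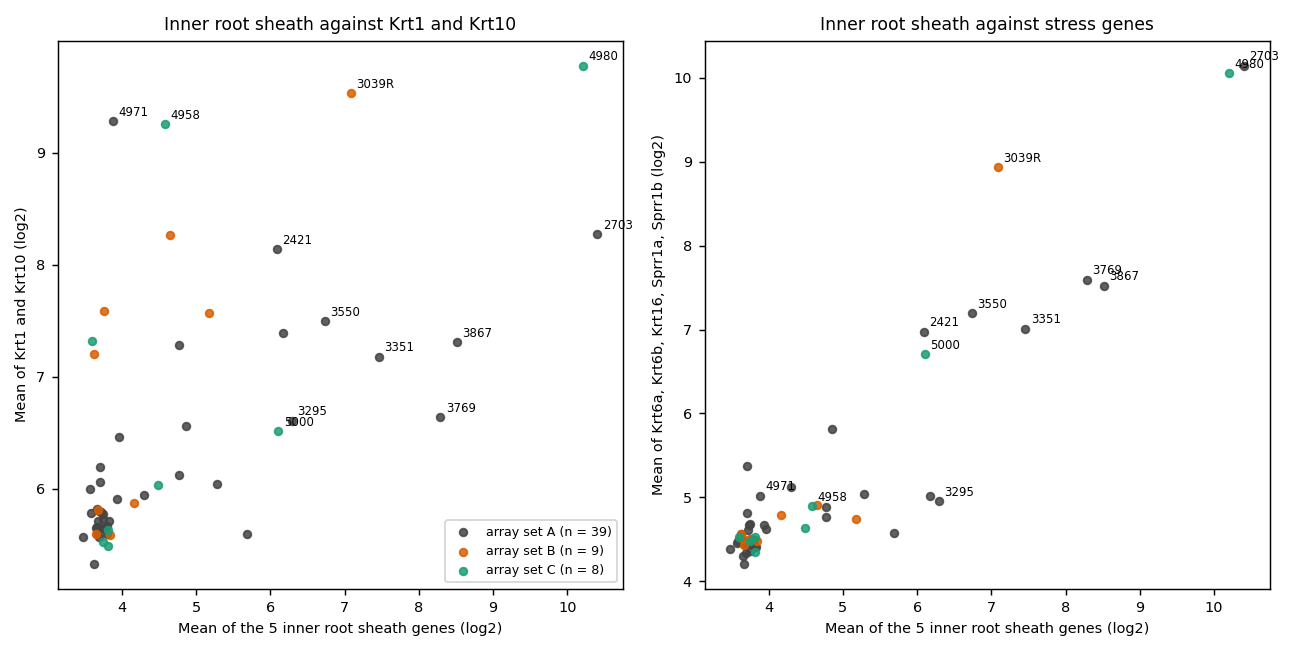
Mean of Krt1 and Krt10 (left) and mean of Krt6a, Krt6b, Krt16, Sprr1a and Sprr1b (right) against the mean of the 5 inner root sheath genes, all in log2 units, 1 point per tumour (n = 56), coloured by array set. On the left tumours 4971 and 4958 sit high at a low sheath mean and 3769 sits low at a high one, while on the right most raised tumours lie along 1 line, with 3295 and, unlabelled just left of it, 3864 below.

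Over all pairs, the hair genes were a tighter block than the epidermal genes. The median Pearson r was 0.913 within the 8 sheath and shaft genes (28 pairs), 0.615 within the 15 epidermal genes that passed the filter (105 pairs) and 0.683 between both (120 pairs). Over all pairs of the 12560 genes tested it was 0.00981. The hair genes thus correlated with the epidermal genes about as much as the epidermal genes did among themselves. The 5 stress genes had a median of 0.939 among themselves (10 pairs) and of 0.862 with the sheath genes (25 pairs). All of these rest on the same 56 RNA samples, so that a few tumours enter every pair. Spearman correlations, which weigh the extreme tumours less, gave 0.669, 0.417 and 0.478 for the first 3 medians.

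The correlations were lower without the raised tumours, and lowest among the epidermal genes. Without the 11 arrays in which 4 or 5 sheath genes were raised, the median r was 0.659 within the hair genes, 0.198 within the epidermal genes and 0.229 between both. These arrays were picked by the sheath values themselves, so the omission narrows the range of the sheath genes by construction. The sheath mean and the mean of the 15 epidermal genes had r = 0.889 (rho = 0.718), and 0.806 without tumours 2703 and 4980. Within array sets A, B and C this r was 0.909, 0.885 and 0.918, but without the 2 farthest arrays of each set it was 0.833, 0.492 and 0.580, so that the values in sets B and C rest on few tumours. With the mean of Krt1 and Krt10 alone, the sheath mean had r = 0.611 (rho = 0.589), 0.489 without 2703 and 4980, and 0.632, 0.791 and 0.684 within the sets. Between Krt1 or Krt10 and the 8 hair genes, no pair exceeded the 0.613 of Krt10 with Krt25, although these 2 keratins are neighbours on chromosome 11.

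**Figure D4:**
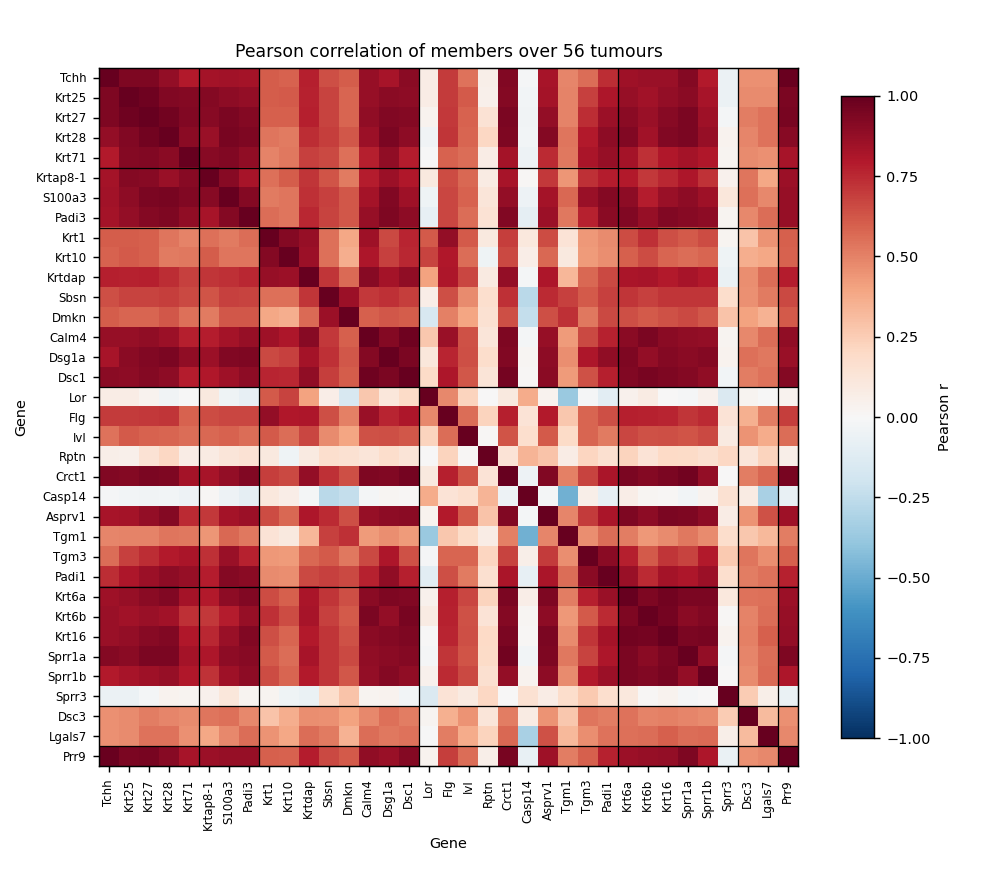
Pearson correlation of every pair of the 35 genes over 56 tumours, grouped by role with black lines between roles. The sheath and shaft block at the upper left is uniformly dark (median r = 0.913), Krt1 and Krt10 are darker with each other (0.916) than with that block, and Lor, Rptn, Casp14 and Sprr3 are pale throughout most of their rows.

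Genes outside the members were ranked by their correlation with the sheath mean over the 56 arrays. The 10 genes outside the 35 with the largest r were Krt73 (0.965) and Krt26 (0.961), both inner root sheath keratins, then 2310011E23Rik (0.943), Fam25c (0.920), the signalling ligand Shh (0.919), the trichohyalin-like gene Tchhl1 (0.913), the skin protease Klk7 (0.909), Crym (0.908), the envelope precursor sciellin, Scel (0.906), and Spink12 (0.904). Krt73 ran from 4.91 through 5.38 to 11.32, and Shh, which signals in the hair matrix, from 4.65 through 5.03 to 9.37. For the epidermal mean the 10 were Hrnr (0.952), a relative of filaggrin, Lce1f (0.943), Fam25c, Klk7, 2310011E23Rik, Kprp (0.914), Lce1a1, Scel, Csta1 and the corneodesmosome gene Cdsn (0.903). Of these, 4 genes (Fam25c, Klk7, 2310011E23Rik and Scel) stood in both lists.

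Lists of further follicle genes were set beside the sheath mean. Measured genes, here and below, are those that passed the filter. A gene low in most tumours could pass it by high values in few tumours, so these counts depend in part on the filter. The annotation held 6 further sheath genes, 12 cortex and cuticle keratins, 16 keratin associated proteins and 12 matrix regulators. It also held 10 stem cell, 8 dermal papilla and 8 sebaceous genes. An r above 0.5 with the sheath mean was found for 274 of the 12530 tested genes outside the members (2.19%), with a median r of -0.03 over all of them. It was found for 5 of 6 measured further inner root sheath genes, 9 of 10 keratins of cortex and cuticle and 9 of 11 keratin associated proteins. With the epidermal mean these 3 counts were the same, against 295 of the 12530 genes (2.35%). The medians of r for the 3 lists were 0.860, 0.752 and 0.691 with the epidermal mean, and 0.905, 0.804 and 0.763 with the sheath mean. Cdsn, counted here among the sheath genes, had 0.897 with the sheath mean and 0.903 with the epidermal mean. Krt34 (3.49, 3.84 and 12.43) and Krt33a (3.06, 3.60 and 11.53) of the cortex were high in few tumours, and Krtap15 and Krtap11-1 reached 11.05 and 11.01. Of the hair matrix regulators, 5 of 7 had an r above 0.5 with the sheath mean and as many with the epidermal mean, Shh and Foxq1 being the widest. Without tumours 2703 and 4980, Shh had 0.853 and Foxq1 0.624, but Bmp4 0.363, Dlx3 0.258 and Hr 0.230. Krt36 and Krtap6-5 also fell below 0.5, to 0.412 and 0.485. Gata3, a transcription factor of the inner root sheath that mammary luminal cells also make, had an r of 0.04 and a median of 9.81.

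Fewer genes of the stem cell, dermal papilla and sebaceous lists had an r above 0.5 with the sheath mean. Of the 7 measured stem cell genes only Krt15 had an r above 0.5 (0.710), Lgr5 having 0.08 and Cd34 -0.01, and of 3 dermal papilla genes none did, Wif1 having 0.22. Of 5 sebaceous genes only Krt79, which is also made in the follicle's upper canal, had one (0.758). On the epidermal side, 17 of 20 further cornified envelope genes and 8 of 12 barrier lipid and protease genes had an r above 0.5. So did 6 of 10 epidermal transcription factors, Klf4 with 0.826 the highest. The annotation held 28, 15 and 10 genes of these lists. Without 2703 and 4980, Klf4 had 0.688, Ovol1 0.553 and Trp63 0.502, but Prdm1 0.461, Grhl3 0.386 and Tfap2a 0.303. Several envelope, lipid and protease genes also fell below 0.5, such as Ppl to 0.307 and Lypd3 to 0.381. None of the 4 oral and oesophageal keratins passed the filter.

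Markers of other cell types that a tumour piece can hold were set beside the sheath mean. The genes of the basal list are shared by mammary myoepithelium and basal epidermis. All 6 had an r above 0.5, from 0.582 for Krt17 to 0.718 for Krt5. Krt15 and Trp63 of this list were also counted above, among the stem cell genes and the transcription factors. When 2703 and 4980 were left out, Krt17 fell to 0.361 and Krt14 to 0.475. Trp63 and Col17a1 then each had 0.502, Krt5 0.569 and Krt15 0.597. The mean of the basal list ran from 5.89 to 9.13, its top in tumour 4980. None of the 6 skeletal muscle genes had an r above 0.5, with r between 0.02 and 0.07, although their mean ran from 4.23 to 12.64. Nor did any of the 6 fibroblast, 3 adipocyte, 6 luminal, 2 melanocyte and 3 salivary genes measured. In 2703 and 4980 the muscle mean was 9.48 and 7.74, and in 3550, of rank 7 by the sheath mean, it was 4.29. The part of basal cells in the values of the members was not tested.

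**Figure D5:**
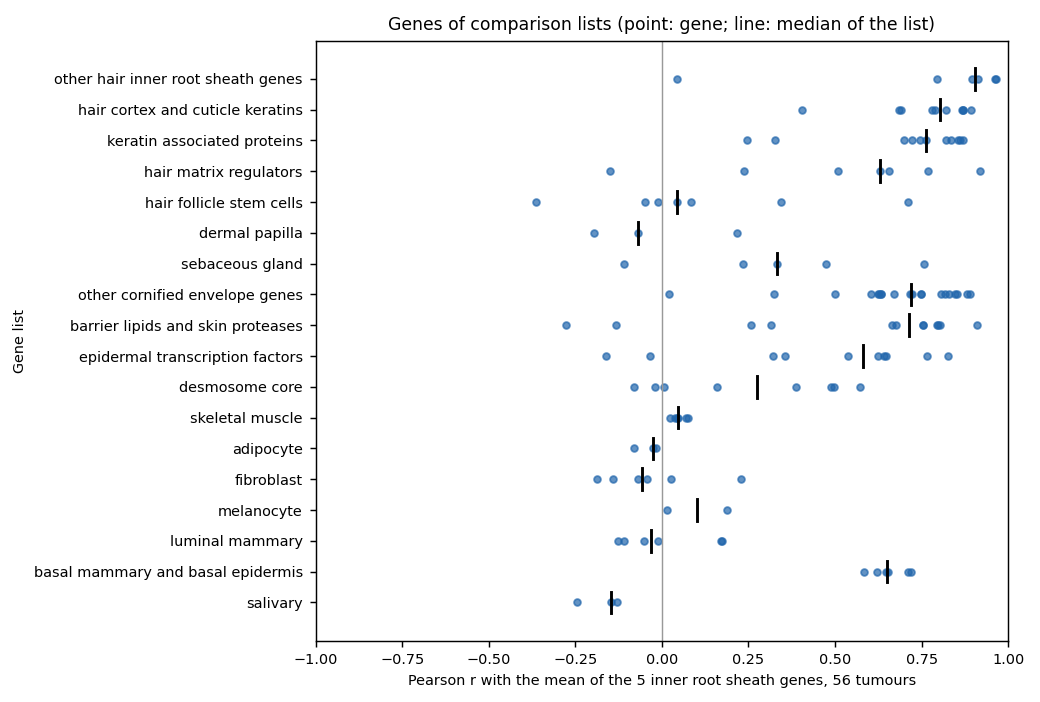
Pearson r of each measured gene of 18 comparison lists with the mean of the 5 inner root sheath genes over 56 tumours (x axis), with a black line at the list's median. The lists of further sheath genes, cortex and cuticle keratins, keratin associated proteins and envelope genes lie mostly to the right of 0.5, and those of muscle, adipocytes, fibroblasts, luminal and salivary cells lie around 0.

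The titles carry a few labels that the selection of the genes did not use. Of the 56 arrays, 8 have a title ending in R, which no label explains, and 48 do not. Between them 4131 of the 12560 genes tested (32.9%) differed in limma's moderated test at a Benjamini-Hochberg adjusted p below 0.05, and 4 of the 30 members that passed the filter did, a smaller share than over all genes. Each of the 56 arrays carries another animal number, and the p-values measure the spread between these arrays.

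No hair gene and no stress gene was among the 4. Tgm1 had 4.80, 5.67 and 6.39 as lowest, median and highest value with R and 5.45, 6.64 and 8.02 without, and was lower with R by -0.99 ± 0.22 (SE, limma, adjusted p = 0.000385). Dmkn had 6.34, 7.90 and 10.26 with R and 6.69, 9.05 and 11.35 without, a difference of -1.09 ± 0.35 (SE, limma, adjusted p = 0.0122). Lor had 6.30, 6.77 and 7.61 with R and 5.83, 6.16 and 7.65 without (0.59 ± 0.15, SE, limma, adjusted p = 0.00131). Casp14 had 6.42, 6.72 and 7.09 with R and 6.16, 6.45 and 6.73 without (0.26 ± 0.05, SE, limma, adjusted p = 0.000121). In each of the 4 genes both groups overlapped. Tchh was 2.20, 2.67 and 9.17 with R against 1.81, 2.93 and 11.14 without (limma, adjusted p = 0.739).

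These 4 calls were not separable from the array sets. Set B holds all 8 arrays with R and 1 without, array 4967, and sets A and C hold none with R. The value with the array set as a block therefore rests on that 1 array. With this block in limma, 0 of 12560 genes passed (163 had an unadjusted p below 0.05), and Tgm1 and Lor turned to 0.25 and -0.48. With the probe set of the largest SD the calls were Dmkn and Tgm1 of 29 members tested, beside 5042 of 11525 genes (43.7%). Casp14 was not tested there, because its probe set 1418748_at did not pass the filter. Over all 68 arrays the call was Tgm1 alone of 30 members, beside 1168 of 12560 genes (9.30%). Whether the mark or the array set goes with the levels of these genes cannot be told apart.

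Animal numbers leave a gap between 3891 and 4946, with 41 of the 56 arrays below it and 15 above. Of all 12560 genes tested, 2726 (21.7%) differed between both ranges in limma at an adjusted p below 0.05, and none of the 30 members did. At an unadjusted p below 0.05, 4285 of the 12560 genes differed and again none of the 30 members. All 8 arrays of set C, 3 of set B and 4 of set A lie in the upper range. With the array set as a block, 0 genes passed in limma (872 had an unadjusted p below 0.05), and within set A alone also 0 (1333 had an unadjusted p below 0.05). The smallest adjusted p was that of Krt1 (limma, 0.161), whose lowest, median and highest values were 4.03, 5.22 and 9.14 in the upper range and 4.03, 4.43 and 8.95 in the lower. Both ranges overlapped over nearly their whole width, and the difference of 0.75 ± 0.39 (SE) did not pass. Tchh differed by -0.59 ± 0.78 (SE, limma, adjusted p = 0.630). With the probe set of the largest SD, Lor was called (0.93 higher in the upper range, limma, adjusted p = 0.0365). It was the 1 call among 29 members tested, beside 2532 of 11525 genes (22.0%).

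Among the 12 arrays with high 18S values, 3 had 4 or 5 sheath genes raised against their medians in the 56. In array 4946 the sheath mean was 8.14 with Tchh at 9.97, Krt25 at 8.32, Krt1 at 8.80 and Prr9 at 10.98, and 26 members were raised. In array 2426 the sheath mean was 7.23 with Tchh at 9.26 and Krtap8-1 at 8.28, and 24 members were raised. In array 3053 the sheath mean was 5.59 with Tchh at 5.64, Krt25 at 5.11 and Krt27 at 6.20, and 15 members were raised. Casp14 ran from 7.95 to 8.73 in the 12 arrays, entirely above its values in the 56, and the Krt6b median was 5.94 there against 4.54. For a single gene, a difference between the 12 and the 56 cannot be told apart from one between these array sets, which holds also for the counts of raised members here and for the comparisons that follow.

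Animal numbers 3296 and 3351 occur with and without R, and in both cases the array with R is among those 12. In 3351, Tchh was 8.67 without R and 2.39 with it, Prr9 10.54 and 3.86, Krtap8-1 8.50 and 3.74, and Krt6b 8.11 and 5.01. Of 35 members, 25 were more than 1 unit higher in the array without R and 1 was more than 1 unit lower. In 3296, Tchh was 6.21 without R and 2.83 with it, Krt25 5.59 and 3.33, and Krtap8-1 6.94 and 4.31, with 11 members more than 1 unit higher and 5 more than 1 unit lower. Of the 8 sheath and shaft genes, 8 were raised in 3351 and 4 in 3296, and 0 in either array with R. The sources used here do not say whether both arrays hold the same tumour.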

How the data were processed

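Tumour RNA of 68 arrays (Affymetrix) was biotin-labelled with a one-cycle kit, per the labels' protocols. The authors made the deposited log2 values with RMA (background correction, normalisation and summary per probe set), per the submitters' processing notes. The log2 scale was inferred from the range, 1.68 to 14.57, since no scale is named, and the normalisation was not repeated. Signal over background was not used here, and the number of arrays limits the precision.

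The members and gene lists were chosen with earlier results of these data known. Genes were named from the platform annotation, in which 34958 probe sets have 1 gene, 932 have several and 9211 of the 45101 are not listed, so members may be missed. Each gene was read from its probe set with the highest mean over all 68 arrays. Chromosomes and promoters came from RefSeq (GRCm38.p6); no build is named for the array. An array set is a split that 20 or more probe sets on 10 or more chromosomes shared exactly, with Ashman's D over 4.5 and a smaller side of 15% of arrays or more. The suffix R and the number range were tested with limma 3.58.1 (lmFit and eBayes, R 4.3.3) over 12560 genes with Benjamini-Hochberg adjustment at 0.05, after a test on simulated data. Named genes are all members, the 10 genes most correlated with each mean, and up to 4 genes of largest SD per list. Any other gene named was chosen after its values were seen. Alternatives were other probe set choices, filters, arrays, centring, rank correlation and thresholds, of which the 48 arrays without R, the animal number as a random block (limma's duplicateCorrelation), the omission of 11 arrays and all alternatives for raised arrays were chosen after seeing the data.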

Additional observations from a re-analysis of the deposited data

Results flagged for a closer look

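Among the 8 arrays with R, array 3039R stood far above the nearest of the others for 13 of the 30 members tested, by the gap to that neighbour over the whole range of the 8. The rule sets an array apart by chance in about 1 in 20 groups of a gene chosen without regard to its values. The members were chosen for wide and joint spread and share the same arrays, so that rate does not apply to them and the count is a description. In this array the inner root sheath gene Tchh was at 9.17, Krt25 at 7.23 and Krt28 at 5.36, and Prr9 was at 9.22. Of the epidermal genes, Calm4 was at 9.18, Dsc1 at 7.63, Crct1 at 9.25 and Asprv1 at 10.16. Of the stress genes, Krt6a was at 9.11, Krt6b at 11.09, Krt16 at 8.55, Sprr1a at 9.56 and Sprr1b at 6.36. For Krt6b the next of the 8 arrays was at 5.01 and for Tchh at 5.23.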

How the results depend on the processing

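The median SD of the members kept within 1.05 to 1.21 under all 8 alternatives, against 1.18. By the probe set of the largest SD, 6 of the 35 SDs moved by over 1.5 times, and by the mean of all probe sets 4 did. The median correlation within hair genes moved from 0.913 to 0.669 with Spearman's rho, to 0.845 without the 2 farthest arrays and to 0.659 without the 11 arrays with raised sheath genes. That omission also moved the median within epidermal genes from 0.615 to 0.198 and between both from 0.683 to 0.229. Arrays with 4 or 5 sheath genes raised numbered 7 at 2 log2 units, against 11. The members called by R (limma, adjusted p below 0.05) numbered 4 of 30, with 32.9% of all genes called. Over all 68 arrays 1 of 30 was called, with 9.30% of all genes, or 9.26% with the animal number as a replicate block. With the probe sets of largest SD 2 of 29 were called, with 43.7% of all genes. Under the array set block, whose value rests on the 1 array of set B without R, Tgm1 reversed to 0.25 and Lor to -0.48. The members called by number range numbered 1 of 29 with the probe sets of largest SD, where 22.0% of all genes were called. This stands against 0 of 30 by the rule, where 21.7% were. Where no construction of the alternative accounts for a move, the cause was not tested. The 56 arrays hold each animal number once and so form no pairs. Over 68 arrays 2 numbers occur with and without R, and the fit with the animal as a random block called Tgm1 (-0.80, limma, adjusted p = 0.0234). Depth has no counterpart on arrays, and low probe sets may sit at background, which limits folds between low values.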
